A study of Mus musculus with 6 samples.

Results

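The genes described here carry the signal of leukaemia inhibitory factor (LIF) to the transcription factor STAT3 in mouse embryonic stem cells. They are 10 of the 31641 genes in the deposited count table and were chosen by name: the ligand Lif, the receptor chains Lifr and Il6st, the kinases Jak1 and Jak2, the transcription factor Stat3, the phosphatase Ptpn11, the feedback inhibitor Socs3 and the kinase genes Pim1 and Pim3. All 10 had enough reads to be tested. The study sequenced poly(A)-selected RNA from E14 cells, a mouse embryonic stem cell line, and its title asks what the RNA acetyltransferase Nat10 does for pluripotency. The control group (CON, 3 libraries) had the genotype Nat10 WT and no doxycycline, and the knockdown group (KD, 3 libraries) had the genotype Nat10 KD and was given doxycycline. The drug and the knockdown cannot be told apart, since every KD library and no CON library received doxycycline. The labels do not state the knockdown construct, the number of clones, the time on doxycycline or the culture medium, so the LIF protein supplied to the cells is not known here. Nor do they say that replicates were separate cultures, and p-values measure only the spread between these libraries, which may be technical.

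LIF binds its receptor chain LIFR, which then pairs with gp130, the shared chain of the interleukin-6 cytokine family that Il6st encodes. Janus kinases bound to the chains phosphorylate them and STAT3, and STAT3 dimers enter the nucleus and switch on target genes that help hold mouse stem cells in the naive pluripotent state. Among the targets is Socs3, whose protein binds gp130 and the kinases and shuts the signal down. RNA levels are reported here; phosphorylation was not measured.

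The libraries held between 33770755 and 39524273 counts. Nat10 itself fell 5.44-fold, from 146, 151 and 150 CPM in the CON libraries, in the order of their numbers, to 26.2, 27.2 and 28.7 CPM in those of KD. CPM is a count scaled by the size of its library, with TMM factors that assume most genes do not move. All 12 embryonic stem cell markers were present in both groups, and all 12 fell, their summed level going from 7410–7460 CPM in CON to 2590–2730 CPM in KD. The 12 fibroblast markers, which feeder cells would carry, rose in sum from 26.6–30.6 to 54.4–60.4 CPM, with 5 of the 12 at 1 CPM or more. Of the 6 that were tested, 4 rose and 2 fell. In the mean, Col1a2 went from 1.53 to 16.6 CPM and Pdgfrb from 11.1 to 27.3, while Thy1 fell from 10.9 to 5.46 CPM and Col6a3 from 0.892 to 0.309. Of the 12, Twist2 and Fap had 0 counts in CON, Col3a1 stayed under 0.1 CPM in both groups, and Dcn and Lum were not among the genes listed. Neuron markers (7 of 10 at 1 CPM or more) summed to 154 CPM in CON and 86.5–96.1 in KD, but 4 rose and 3 fell. The sum followed Stmn2 (94.6 to 21.8 CPM) and Tubb3 (37.2 to 5.64), while Syp rose from 0.904 to 29.1 CPM, Map2 from 9.38 to 26 and Snap25 from 0.231 to 1.88. Blood markers (3 of 8) summed to 233–237 and 96.4–111 CPM, mostly Laptm5 (215 to 80.5), with Spi1 also falling and Cd68 rising from 16.1 to 22.6. Extra-embryonic endoderm markers (5 of 10) summed to 50.3–56.3 and 47.3–49.1 CPM, and 2 rose and 2 fell. Of these lists, Dcx, Ttr, Tyrobp and Hbb-bt were likewise not among the genes listed, and Ptprc was at 0 counts in KD. The part of these markers in the results below was not tested. In bulk RNA, fewer cells expressing a gene and less of its RNA per cell cannot be told apart.

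Of the 10 genes, 5 fell (Lifr, Pim1, Pim3, Ptpn11 and Il6st), 3 rose (Jak2, Jak1 and Stat3), and Lif and Socs3 did not pass the test, edgeR's quasi-likelihood test at an adjusted p of 0.05. This is 80% called, in a comparison where 63.0% of the 18019 tested genes were called (32.2% rose and 30.8% fell) and 75.8% of the 10018 genes with at least 10 CPM were called. The share called is therefore near that of genes of like abundance, and what follows describes the single genes. CPM values of the groups did not overlap for 8 of the 10, against 67.1% of all tested genes. The median log2 fold change of the 10 was -0.09, and that of all tested genes was 0.02. With libraries scaled by size only, the median of all genes moved to 0.25, so small changes depend on the scaling and are also given relative to that shift. Taking the shift away brings the values back near those of TMM by construction, so they are no separate check. Whether most genes stayed unmoved, as TMM assumes, was not tested. Of all called genes, 51.1% rose under TMM and 70.1% with libraries scaled by size only. Under the latter scaling 5 of the 10 genes rose (Lif and Socs3 in addition) and 4 fell (all but Il6st of the 5).

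**Figure D1:**
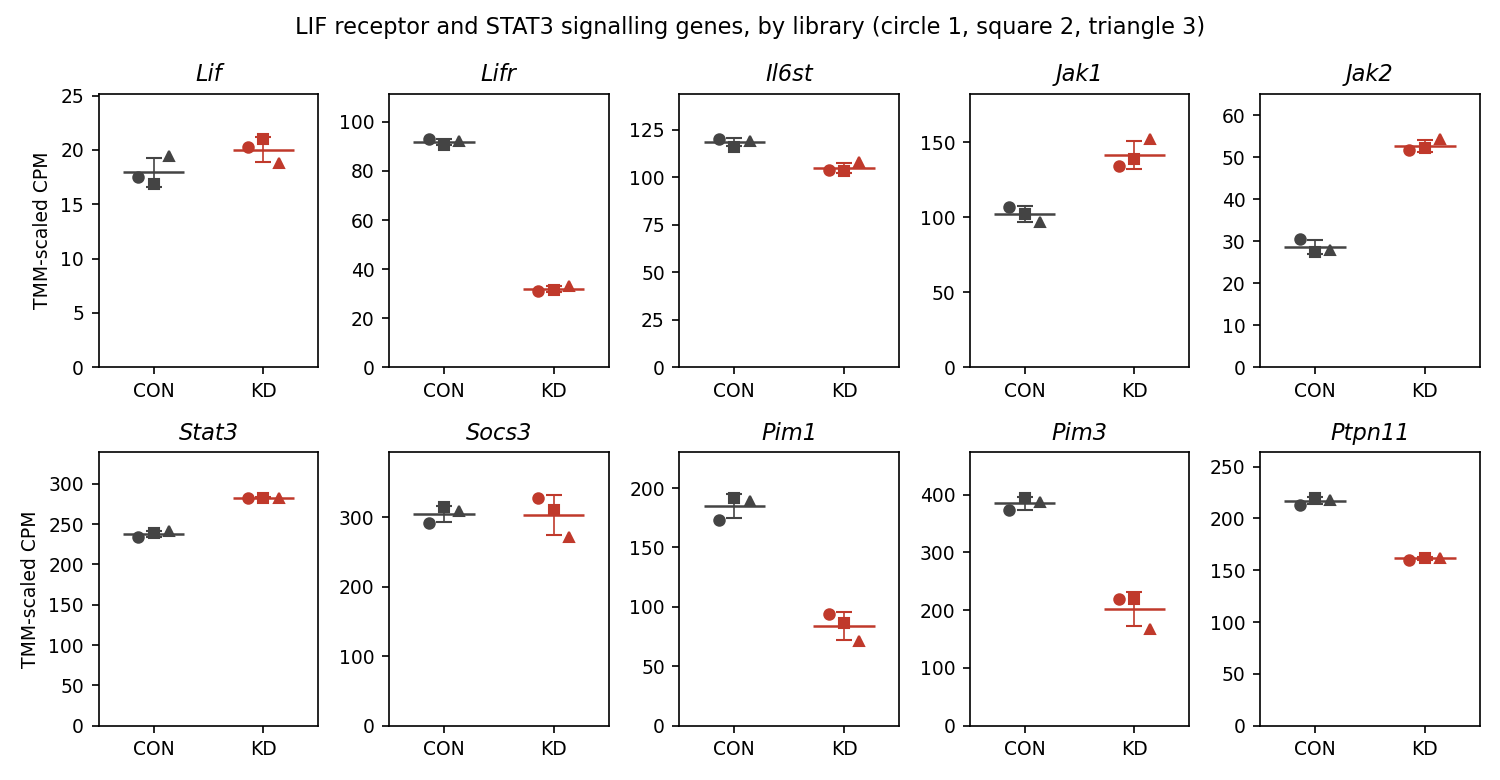
TMM-scaled CPM (vertical axes from 0, different per gene) of the 10 genes in each library, with circles, squares and triangles for replicates 1, 2 and 3, a line at the group mean and bars of 1 SD (n = 3). Lifr shows the widest gap between groups relative to its spread, and the groups of Lif and Socs3 overlap.

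Lifr, the chain that binds LIF first, had the largest change of the 10. It stood at 93, 90.5 and 92.3 CPM in the CON libraries and at 30.9, 31.3 and 33.3 CPM in the KD libraries. Every KD library lay far under every CON library, and within each group the 3 values differed by little. The gene fell 2.89-fold, from 92 ± 1.3 to 31.8 ± 1.28 CPM (SD, n = 3; log2 fold change -1.53, SE 0.055, edgeR adjusted p = 4.09e-12). It lies on chromosome 15 from 7090614 to 7197489 on the forward strand (GRCm38).

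Il6st, the gp130 chain, had 120, 116 and 119 CPM in CON and 104, 103 and 108 CPM in KD. All 3 KD values were lower, by a small margin. The fall was 1.12-fold (log2 fold change -0.17, SE 0.0459, edgeR adjusted p = 0.00447), but with libraries scaled by size only the log2 fold change was 0.06 and did not pass (edgeR adjusted p = 0.274), which is -0.19 relative to all genes. The gene lies on chromosome 13 from 112464070 to 112510086, forward strand.

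The balance of the receptor chains does not depend on any scaling, because both are counted in the same library. Lifr had 0.778, 0.778 and 0.777 counts per count of Il6st in CON, and 0.296, 0.304 and 0.308 in KD. Per gene length, in the deposited FPKM, the ratios were 0.802, 0.802 and 0.8 in CON and 0.305, 0.313 and 0.317 in KD. Il6st was the more abundant chain in every library, by a small margin in CON and a wide one in KD. The ratio fell by 1.36 on the log2 scale, or 2.57-fold, and its groups did not overlap (two-sided exact permutation test p = 0.1, 0.1 adjusted over the 4 ratios tested, the smallest value that 3 against 3 libraries can give).

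Lif, which encodes the cytokine, was the least abundant of the 10 in CON. Its libraries held 17.5, 16.9 and 19.4 CPM in CON and 20.3, 21 and 18.8 CPM in KD. KD-3 lay below CON-3, so the groups overlapped. The difference did not pass (log2 fold change 0.16, SE 0.0827, edgeR adjusted p = 0.101), and its 95% interval ran from a 0.99-fold to a 1.26-fold level. Without KD replicate 3 it passed (log2 fold change 0.2, edgeR adjusted p = 0.0311), as it did with libraries scaled by size only (0.39, edgeR adjusted p = 0.000636). The gene is on chromosome 11 from 4257557 to 4272514, forward strand.

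Both kinases rose. Jak2 went from 30.4, 27.5 and 27.8 CPM in CON to 51.6, 52.2 and 54.3 CPM in KD, with no overlap. Its rise was the largest of the 10 genes, at 1.84-fold (log2 fold change 0.88, SE 0.0633, edgeR adjusted p = 9.14e-09). Jak1, the kinase on which signalling through gp130 mainly depends, had 107, 102 and 96.5 CPM in CON and 134, 139 and 152 CPM in KD. Again every KD value was above every CON value, although the libraries of both groups were spread more widely than those of Lifr or Stat3. Jak1 rose 1.39-fold (log2 fold change 0.47, SE 0.0567, edgeR adjusted p = 2.77e-06). Counts of Jak2 per count of Jak1 went from 0.283, 0.269 and 0.289 in CON to 0.385, 0.375 and 0.358 in KD, a difference of 0.41 on the log2 scale without overlap (two-sided exact permutation test p = 0.1, 0.1 adjusted over 4 ratios). Jak1 stayed the more abundant of the pair in every library. Jak2 lies on chromosome 19 from 29251828 to 29313080 on the forward strand. Jak1 lies on the reverse strand of chromosome 4, between 101152367 and 101265282, where 4 exonic bases are shared with Raver2 on the opposite strand.

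Stat3, the transcription factor of the pathway, was higher in KD by a small and even margin. It had 234, 239 and 241 CPM in CON and 283, 282 and 283 CPM in KD. The KD libraries differed from each other by under 1 CPM in SD (0.844), the tightest relative spread of the 10 genes in either group. The rise was 1.19-fold (log2 fold change 0.25, SE 0.0398, edgeR adjusted p = 6.09e-05), or 0.23 relative to all genes with libraries scaled by size only. Stat3 is on chromosome 11 from 100885098 to 100939540, reverse strand, and shares 72 exonic bases with Stat5a on the opposite strand, a gene with 3823 counts over the 6 libraries.

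Ptpn11 encodes SHP2, a phosphatase that binds the same site of gp130 as SOCS3 and links the receptor to the ERK branch. It had 213, 220 and 218 CPM in CON and 160, 162 and 162 CPM in KD, and each KD value was below all CON values. It fell 1.34-fold (log2 fold change -0.43, SE 0.0415, edgeR adjusted p = 2.8e-07). With libraries scaled by size only the fall was 0.2 on the log2 scale in size (log2 fold change -0.2, edgeR adjusted p = 0.000592), which is -0.44 relative to all genes. The gene is on chromosome 5 from 121130533 to 121191397, reverse strand.

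Socs3, the feedback inhibitor and a direct STAT3 target, had no detectable change. Its levels were 292, 314 and 309 CPM in CON and 328, 310 and 272 CPM in KD, so that KD-1 was the highest and KD-3 the lowest of all 6 libraries. The log2 fold change was -0.01 (SE 0.059, edgeR adjusted p = 0.899), with a 95% interval from a 0.91-fold to a 1.08-fold level. The sign of so small a value turned with libraries scaled by size only, where it rose (0.22, edgeR adjusted p = 0.00368, and -0.03 relative to all genes), and was also positive, without passing, when KD replicate 3 (0.06) or CON replicate 2 (0.01) was left out. Relative to Stat3, Socs3 was lower in KD: its counts per count of Stat3 were 1.25, 1.31 and 1.28 in CON and 1.16, 1.1 and 0.962 in KD. This ratio fell by 0.26 on the log2 scale with no overlap (two-sided exact permutation test p = 0.1, 0.1 adjusted over 4 ratios), and by 0.18 without KD replicate 3. Socs3 lies on chromosome 11 from 117966079 to 117970047, reverse strand.

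STAT factors bind the palindrome TTCNNNGAA, which reads the same on both strands. All 10 genes were matched to promoters in the RefSeq set (GRCm38.p6), through 12 annotated starts, and the 250 bases before each start were searched. Only the Socs3 window held the motif, 1 of 10 genes, beside 8.13% of 27025 genes in the set, a share near that background. The stretch is printed because Socs3 is the direct STAT3 target that did not follow Pim1 and Pim3. It is at chr11:117969482-117969550, written 5′ to 3′ on the reverse strand, with the match in capitals, starting at position -154 from the RefSeq start.

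Socs3: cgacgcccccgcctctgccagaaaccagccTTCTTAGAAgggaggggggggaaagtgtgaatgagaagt

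The RefSeq start (117969366) lies 180 bases before the start of the coding transcript in GENCODE (117969186), so the window is farther from the coding transcript than its length implies. The 180 bases next to the coding transcript were not searched for either form of the motif, so a site there would have been missed. The narrower form TTCCNGGAA was in none of the 12 windows of these genes and in 0.913% of all 32851 windows. These matches describe letters in a window, not bound sites.

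Pim1 and Pim3 encode serine/threonine kinases that promote growth and survival and are transcribed in response to STAT3. Pim1 had 173, 192 and 189 CPM in CON and 93.9, 86.4 and 71 CPM in KD. It fell 2.2-fold (log2 fold change -1.14, SE 0.0789, edgeR adjusted p = 6.26e-09). Pim3 had 373, 395 and 387 CPM in CON and 220, 219 and 168 CPM in KD. It fell 1.9-fold (log2 fold change -0.93, SE 0.0792, edgeR adjusted p = 1.23e-07). In both genes the groups were far apart and KD-3 was the lowest library. Without KD replicate 3 the log2 fold changes were -1.04 for Pim1 and -0.81 for Pim3. Pim2, the third gene of the family, also fell, from 37.5 ± 3.06 to 22.5 ± 1.2 CPM (SD, n = 3; 1.67-fold, edgeR adjusted p = 5.16e-07).

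Pim3 fell a little less than Pim1. There were 2.15, 2.05 and 2.05 counts of Pim3 per count of Pim1 in CON and 2.35, 2.53 and 2.37 in KD, a difference of 0.21 on the log2 scale without overlap (two-sided exact permutation test p = 0.1, 0.1 adjusted over 4 ratios). Pim1 is on chromosome 17 from 29490753 to 29496112 and Pim3 on chromosome 15 from 88862186 to 88865726, both on the forward strand. Pim1 shares 488 exonic bases with the antisense gene Gm26885, which had 72 counts in all 6 libraries together.

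**Figure D2:**
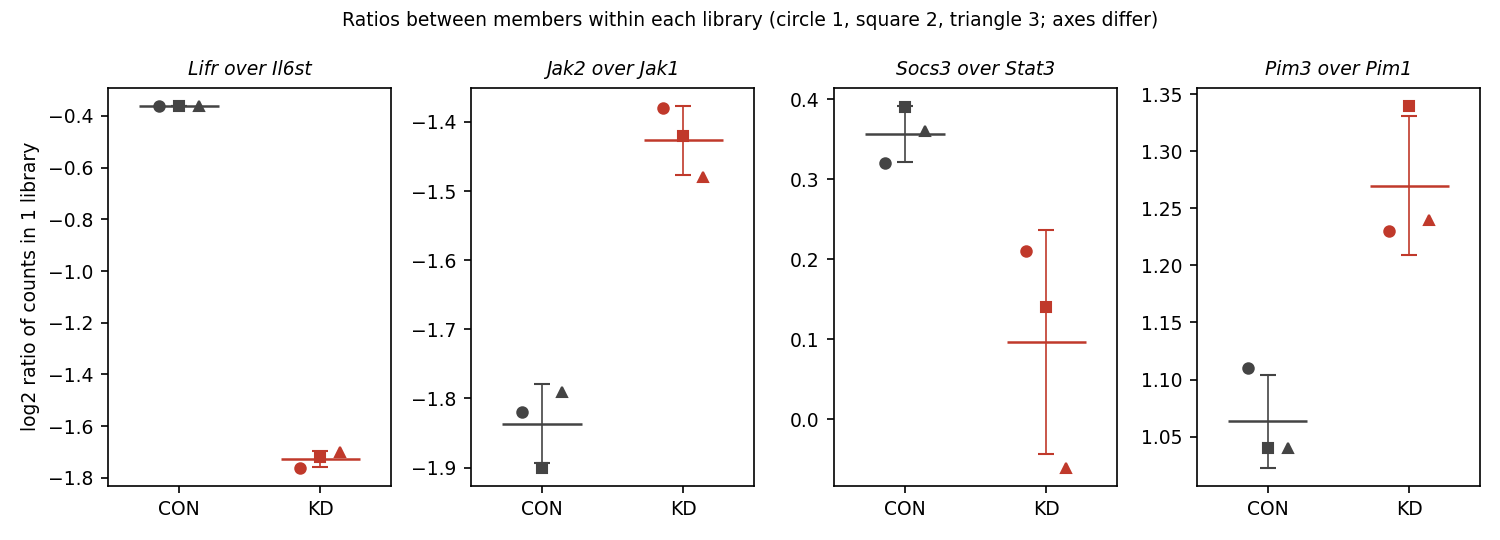
Log2 ratio of the counts of 2 genes within each library (vertical axes differ), with circles, squares and triangles for replicates 1, 2 and 3, a line at the group mean and bars of 1 SD (n = 3). The CON and KD groups do not overlap in any of the 4 ratios, and Lifr over Il6st differs most, by -1.36.

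The spread between KD libraries was not the same for all 10 genes. Pim3, Pim1 and Socs3 had coefficients of variation of 14.7, 14 and 9.46% in KD, against 2.85, 5.42 and 3.73% in CON. For the other genes the KD value ran from 0.299% for Stat3 to 6.38% for Jak1. The 3 variable genes are also the 3 with the shortest exonic length (2427 bases for Pim3, 2891 for Socs3 and 3362 for Pim1) and the 3 with the highest level per length in CON. In all 3 it was KD-3 that lay lowest. Among the KD libraries, KD-3 was the lowest in 4 of the 10 genes, Lif included. It was the highest in 5, namely Lifr, Il6st, Jak1, Jak2 and Ptpn11. The part of gene length in this was not tested. Over the 11461 genes of at least 5 CPM, KD-3 had the largest median deviation from its group mean, 0.0805 on the log2 scale, against 0.0355 to 0.0557 in the other libraries.

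**Figure D3:**
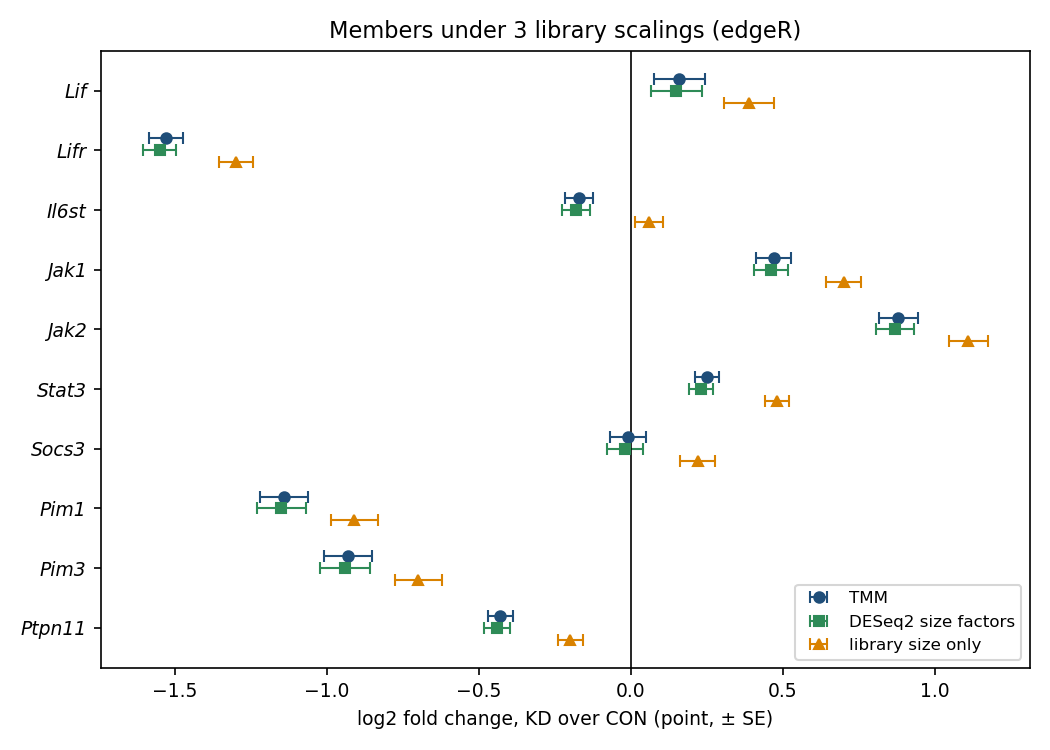
Log2 fold change of each gene, KD over CON, as the edgeR estimate with its standard error, under TMM scaling (blue circles), DESeq2 size factors (green squares) and library size only (orange triangles). TMM and DESeq2 size factors differ by at most 0.02, and scaling by size only shifts every gene up and moves Il6st and Socs3 across 0.

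Levels can be compared between genes only per length, for which the FPKM of the deposited table served (scaled by library size, not TMM). In CON the order was Pim3 (146 ± 3.83 FPKM, SD, n = 3), Socs3 (97.4 ± 3.39), Pim1 (50.7 ± 2.63), Ptpn11 (26.7 ± 0.351), Stat3 (23.1 ± 0.269), Jak1 (13 ± 0.734), Il6st (9.83 ± 0.16), Lifr (7.88 ± 0.126), Jak2 (5.25 ± 0.309) and Lif (3.8 ± 0.269). No neighbours in that order overlapped. The order thus runs from the STAT3 targets through the signal carriers to the receptor chains, Jak2 and the ligand.

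In KD the order of levels per length differed. Socs3 stood first at 113 ± 10.5 FPKM and Pim3 second at 90.3 ± 13.2. Stat3 (32.1 ± 0.0547 FPKM) was above Pim1 (27 ± 3.71), which overlapped Ptpn11 (23.3 ± 0.217). Jak1 (21.2 ± 1.39) and Jak2 (11.3 ± 0.328) followed, and Jak2 was now above Il6st (10.2 ± 0.269). Lifr moved from eighth place to last, with 3.09, 3.14 and 3.34 FPKM, under Lif at 5.03, 5.23 and 4.68 FPKM. The highest Lifr value was below the lowest Lif value in KD, the reverse of CON.

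**Figure D4:**
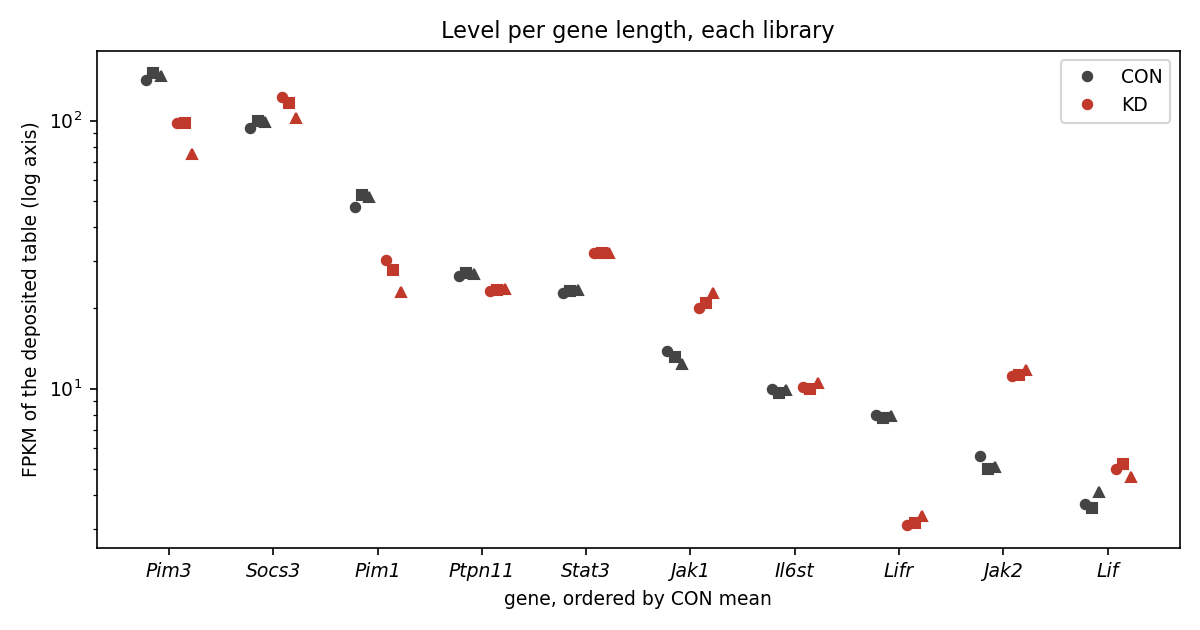
FPKM of the 10 genes in each library (log axis), ordered by the CON mean, with CON in grey, KD in red and circles, squares and triangles for replicates 1, 2 and 3. Pim3 is highest in CON and Socs3 in KD, and Lifr drops below Lif in KD.

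The authors' deposited table gives its own log2 fold change, written as CON over KD. In the authors' deposited table the values of the 10 genes have the opposite sign of those above, with 1.54 for Lifr, 1.15 for Pim1 and -0.87 for Jak2. The authors' deposited table marks Lifr and Pim1 as changed and the other 8 as unchanged, Pim3 at 0.94 included. The rule behind the mark was not given, and it does not rest on the adjusted p alone, as the calls above do. The authors' FDR, by a test that no source names, was 2.27e-29 for Pim3 and 1.27e-31 for Jak2. It was 0.305 for Lif and 0.893 for Socs3.

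Further genes of the pathway were read from 5 lists. Of all tested genes, 63.0% were called, 32.2% rising and 30.8% falling, and these shares stand beside every list below. Among genes of at least 10 CPM, 75.8% were called. Of the 16 other interleukin-6 family cytokines and receptors, 12 were tested, and 2 rose, 4 fell and 6 did not pass (median log2 fold change -0.21). The rises were Il11ra1, the interleukin-11 receptor chain that also pairs with gp130, which went from 11.7 ± 0.384 to 28.2 ± 1.61 CPM (SD, n = 3; 2.42-fold), and the cytokine Ctf1 (1.45-fold). Ctf1, which signals through LIFR and gp130, did not pass without CON replicate 1 (edgeR adjusted p = 0.0614) or KD replicate 2 (edgeR adjusted p = 0.0912). Il11ra1 has close copies in the mouse genome, so its level is uncertain where reads were shared. Among those that fell were the receptor genes Il27ra (1.61-fold) and Il6ra (1.44-fold), and the cytokine gene Cntf. Cntf is a low gene: its CON libraries held 11, 12 and 12 counts and its KD libraries 1, 9 and 4, and 847 of its exonic bases also belong to Zfp91 on the same strand. Its call (edgeR adjusted p = 0.0389) was lost without any 1 of CON replicates 1, 2 and 3 and KD replicates 1 and 3 (edgeR adjusted p from 0.0743 to 0.168).

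Among the receptor chains that compete for gp130, Osmr was low, at 0.845 ± 0.333 CPM in CON and 0.981 ± 0.14 in KD. Cntfr, which forms a complex with LIFR and gp130, had 18.8 ± 2.11 and 17.4 ± 2.29 CPM, and neither gene passed (edgeR adjusted p = 0.564 and 0.394). Il6, Il27, Il31 and Il31ra were not tested for lack of counts. Il6 had at most 4 counts in any library, and Il31 had 2 counts in KD-1 and 0 elsewhere. Il27 had at most 2 counts in any library and Il31ra between 4 and 7.

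Of the 8 other Janus kinases and STAT factors, 4 rose, 2 fell and 2 did not pass (75.0% called, median log2 fold change 0.2). Stat2 rose 1.43-fold, the kinase genes Tyk2 and Jak3 rose 1.31-fold and 1.22-fold, and Stat5a rose 1.23-fold. All 4 Janus kinase genes, Jak1 and Jak2 included, were thus higher in KD under TMM scaling and with libraries scaled by size only. Stat5a shares its 72 exonic bases with the far more abundant Stat3, so its level is uncertain. Jak3 shares 404 exonic bases with Insl3 on the same strand, and its level is uncertain where reads were shared. Insl3 had 240 counts over the 6 libraries, however, and Jak3 had 2660 in CON-1 alone. Stat4 fell 1.67-fold from a low level (4.27 ± 0.251 to 2.56 ± 0.366 CPM, SD, n = 3), and Stat5b fell 1.2-fold, a call that was lost with libraries scaled by size only (log2 fold change -0.03). Stat3 was the most abundant STAT gene per length in both groups, at 23.1 FPKM in CON beside 12.8 for Stat6, 5.58 for Stat2 and 5.55 for Stat5b.

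Of 19 other attenuators of JAK-STAT signalling, 9 rose, 7 fell and 3 did not pass (84.2% called, median log2 fold change 0.16). Socs2 fell 2.25-fold, from 59.6 ± 0.685 to 26.5 ± 1.12 CPM (SD, n = 3), and Socs4 fell 1.78-fold, while Socs5 rose 1.31-fold. The SOCS genes named here moved in both directions, as did tested genes in general (32.2% rose and 30.8% fell). The phosphatase genes divided as well, with Ptpn9 falling 1.75-fold, and Ptpn6, which encodes SHP1, the close relative of SHP2, rising 1.3-fold. Pias2, of the family that inhibits activated STATs, fell 1.52-fold. The adaptor gene Sh2b3, a restraint on JAK2 that shares 99 exonic bases with Atxn2 on the opposite strand, rose 1.41-fold, and Ptprt, whose product can dephosphorylate STAT3, rose 2.54-fold from 1.25 ± 0.248 CPM.

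Of 22 other genes known as STAT3 targets, 14 fell, 4 rose and 4 did not pass (81.8% called, median log2 fold change -0.57). Of all tested genes 30.8% fell, and 75.8% of those with at least 10 CPM were called in either direction. Among the falls were transcription factors of naive stem cells. Klf5 went from 589, 624 and 617 to 126, 124 and 110 CPM (5.09-fold) and Klf4 from 531, 569 and 553 to 153, 153 and 131 CPM (3.79-fold). Tfcp2l1, which carries much of the effect of LIF on self-renewal, went from 498, 497 and 487 to 227, 223 and 232 CPM (2.17-fold). Myc, a growth regulator, fell 2.41-fold, from 36.2 ± 0.9 to 15 ± 1.62 CPM (SD, n = 3). In each of these genes every KD value was well below every CON value. The genes that rose were Zfp36 (2.01-fold), which encodes an RNA decay factor, the AP-1 genes Fos (1.53-fold) and Junb (1.33-fold), and the cytokine receptor gene Il4ra (1.85-fold). Junb shares 173 exonic bases with Prdx2 on the opposite strand. The 4 that rose are known responders of many pathways, and Klf4, Klf5, Tfcp2l1 and Myc likewise answer to other factors of the naive state. The part of STAT3 in these rises and falls was not tested.

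Of 24 adaptors and kinases of the ERK and PI3K branches, which LIF also feeds, 13 fell, 7 rose and 4 did not pass (83.3% called, median log2 fold change -0.17). Nras, a small GTPase of the RAS and ERK branch, fell 1.68-fold. The rises with the smallest p were of Akt1 (86.6 ± 3.24 to 167 ± 12.4 CPM, SD, n = 3; 1.92-fold), the adaptor Gab2 (1.97-fold), the exchange factor Sos2 (1.57-fold) and the PI3K subunit Pik3r2 (1.46-fold). With libraries scaled by size only, 4 genes of this list fell and 10 rose.

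**Figure D5:**
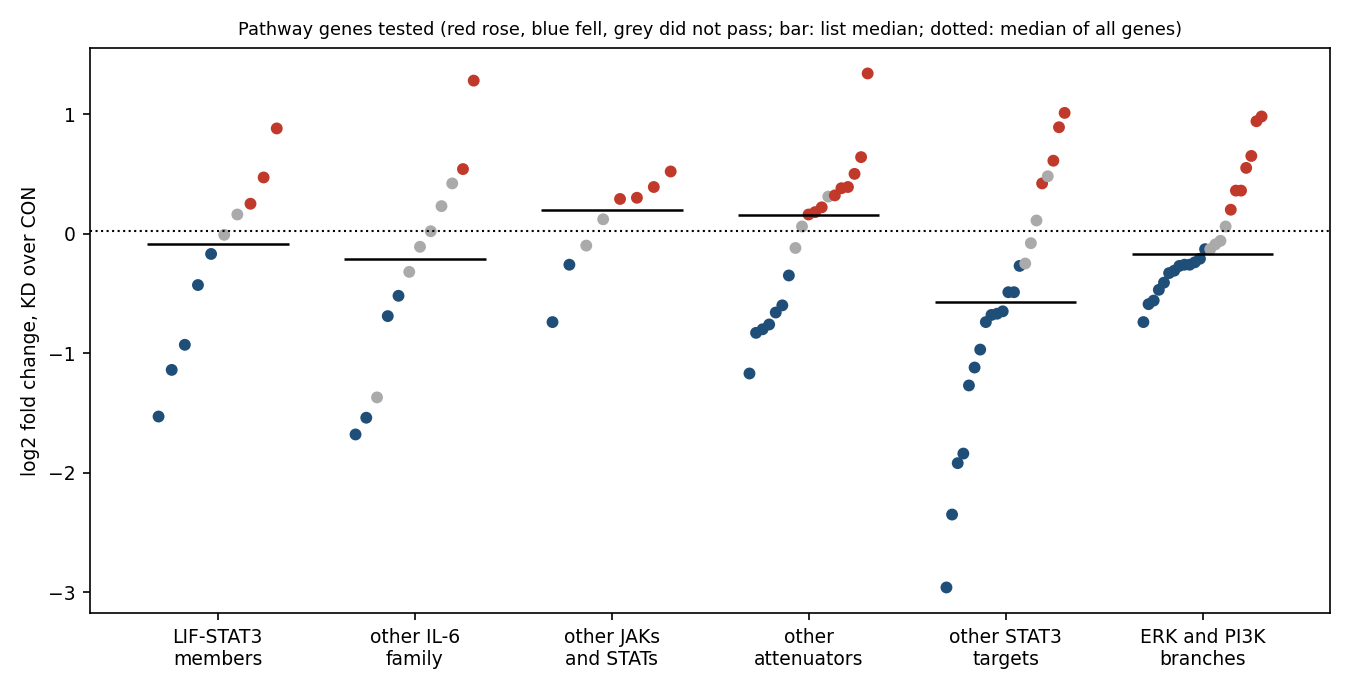
Log2 fold change (KD over CON) of each tested gene of the 10 LIF-STAT3 genes and the 5 further lists, red where it rose, blue where it fell and grey where it did not pass, with a bar at the list median and a dotted line at the median of all tested genes (0.02). Other STAT3 targets have the lowest median (-0.57), and other JAKs and STATs the highest (0.2).

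The genes whose levels followed 3 of the pathway's genes most closely over the 6 libraries were found by the root mean square difference of log2 CPM, each gene centred on its own mean, among 11460 genes of at least 5 CPM. For Lifr they were Nmnat2 (difference 0.0144), the RNA-binding protein gene Lin28a (0.0156) and Mkrn1 (0.0229). For Stat3 they were Dnaja3 (0.0145), Susd6 (0.0146) and Gosr2 (0.0157). Those nearest to Socs3 were Sh3gl1 (0.0134), 2700081O15Rik (0.0162) and Dedd2 (0.0193). A difference under 0.1 was reached by 78 genes for Lifr, 1751 for Stat3 and 1142 for Socs3. With close libraries within each group, this measure mostly reflects the size of the fold change. The log2 fold changes of the genes nearest to Lifr were -1.52, -1.51 and -1.56. These numbers therefore cannot show that the pattern of Lifr is particular beyond the size of its fall.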

How the data were processed

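RNA of 6 libraries was compared, 3 CON and 3 KD. Per the submitters' processing notes, FastQC 0.11.9, STAR 2.5.3a and featureCounts were used with build mm10; how strands and multi-mapping reads were handled, and the annotation, were not given there. The authors deposited raw counts per gene and FPKM values, and per the file headers also a log2 fold change and an adjusted p-value (FDR), by a test that no source names. The authors' FPKM was checked to be the count scaled by gene length and library total, and its lengths equal the exonic bases of GENCODE M21 (GRCm38) for the 10 genes. Columns were matched to samples by treatment and number, and 26 date-like gene names were restored from identifiers.

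The 10 genes, the 5 pathway lists (89 entries), the marker lists and the tests were chosen with earlier results of these data known. Counts were tested across all genes with edgeR 4.0.16 in R 4.3.3: filterByExpr (18019 genes kept), TMM (factors 0.9222 to 1.084), a robust quasi-likelihood F-test of KD against CON, Benjamini-Hochberg adjustment over all tested genes and a threshold of 0.05. The procedure was tested on simulated data in which few genes changed, with as many rises as falls. That test does not bear on the scaling of libraries where most genes are called, as they were here. Intervals are 95% from the same fit. Ratios between genes used counts plus 0.5 and a two-sided exact permutation test. A single count was worth 0.0253 to 0.0296 CPM. Of counts from 1 to 20, 70 to 71.7% were even; the cause was not tested, and low counts may stand for fewer fragments. DESeq2 1.42.0 was an alternative test, and other scalings, filters, a replicate block, divided counts and left-out libraries were also tried. Named pathway genes are up to 4 per list and direction by smallest p; Pim2, Stat6, Osmr, Cntfr and the marker genes were named after their values were seen. Some genes of the lists are counted but not reported by name here.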

Additional observations from a re-analysis of the deposited data

How the results depend on the processing

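Of 130 alternative values of the 10 genes' fold changes, 124 kept their direction and their side of the threshold, 2 (of Lif) newly passed and 4 (of Il6st and Socs3) changed sign. Among those 4, with libraries scaled by size only, Socs3 also newly passed and Il6st lost its call. With libraries scaled by size only, Il6st was at 0.06 and Socs3 at 0.22 on the log2 scale, 3535 genes in all fell, 5 of the 10 rose, and 2 other interleukin-6 family genes, 1 other JAK or STAT gene and 4 genes of the ERK and PI3K branches fell. That scaling leaves out the TMM factors, which were all lower in CON than in KD. Without 1 library at a time, Socs3 ran from -0.08 to 0.06, with 0.01 without CON replicate 2, and 1 to 2 interleukin-6 family genes rose. All 4 ratios kept their sign in all 32 alternatives. With the replicate number as a block, 5559 genes rose and 5347 fell, and the calls of all 10 genes were as without it. The labels do not say that the numbers pair the libraries. Deviations of same-numbered libraries from their group means correlated at -0.331, 0.178 and -0.146 over 11367 genes, and CON-1 correlated best with KD-3 (0.385). Deviations within a group depend on each other, so these values cannot exclude a pairing. With 4 free bases in the STAT motif, 0 of the 10 genes had a match. Depth limits the cytokine genes of under 1 CPM. The lowest count of the 10 genes was 595, for Lif in CON-1, and the part of counting noise in the spread of Lif was not tested.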
